A study of Mus musculus with 2 samples.

Results

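Back-splice reads of 5 genes that encode regulators of chromatin (Eed, Ep300, Ehmt1, Rere and Mbd2) were examined in small intestinal crypts of the mouse. A circular RNA (circRNA) forms when the splicing machinery ligates a downstream splice donor to an upstream acceptor, which closes 1 or more exons into a loop. Reads that cross this ligation (back-splice reads) were counted. The 5 genes were chosen with earlier results of these data known. Every listed circRNA assigned by name to 1 of them was then taken, and 13 of the 1132 listed circRNAs met this rule. The samples were 2 libraries of total RNA (replicates 1 and 2) from wild-type small intestine crypts, with no second genotype, treatment or time point. The cell type entry of both samples names intestinal stem cells, whereas the titles name crypts, and no sort is recorded. The labels name no strain, age or number of animals, so differences between the libraries measure a spread that may be technical.

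The encoded proteins write or read marks on chromatin or recruit enzymes that remove them. Eed is a core subunit of Polycomb repressive complex PRC2, which methylates a lysine of histone H3, and it binds the methylated histone tail and stimulates the enzyme Ezh2 or Ezh1. Ep300 is the histone acetyltransferase p300, a coactivator at enhancers. Ehmt1 (also called GLP) methylates another lysine of histone H3 together with Ehmt2. Rere is an atrophin-family corepressor that works with nuclear receptors and histone deacetylases. Mbd2 binds methylated CpG sites and recruits the NuRD deacetylase complex. In the mouse intestine PRC2 is known to maintain proliferating crypt progenitors.

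Replicate 1 held 46 back-splice reads of the 13 circRNAs among 3546 listed, and replicate 2 held 58 among 4441. Their share was 1.30% (0.951 to 1.73%, Clopper-Pearson interval at 95%) in replicate 1 and 1.31% (0.993 to 1.69%) in replicate 2. Eed had 1 circRNA, Ehmt1 and Mbd2 had 2 each, Ep300 had 3 and Rere had 5. All 13 were typed as exonic in the table, all 26 of their ends lay at annotated exon edges of the named gene, and 12 had both ends at splice sites of 1 transcript. That share was 89.0% (1008 of 1132) over the whole table. No other annotated gene overlapped any of the 13 (0 genes on either strand).

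The map of exons shows which part of each gene was circular. Exon numbers run 5′ to 3′ along the transcript matched to each circRNA. Back-splice reads place only the ends of a circle. The exons between the ends were taken from that transcript and were not checked in reads. The same holds for the spliced lengths, base composition, coding content and reading frames below. The circRNA of Eed and the leading circRNAs of Ep300 and Ehmt1 came from middle or late exons of their genes, whereas those of Rere and Mbd2 came from the earlier exons.

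**Figure D1:**
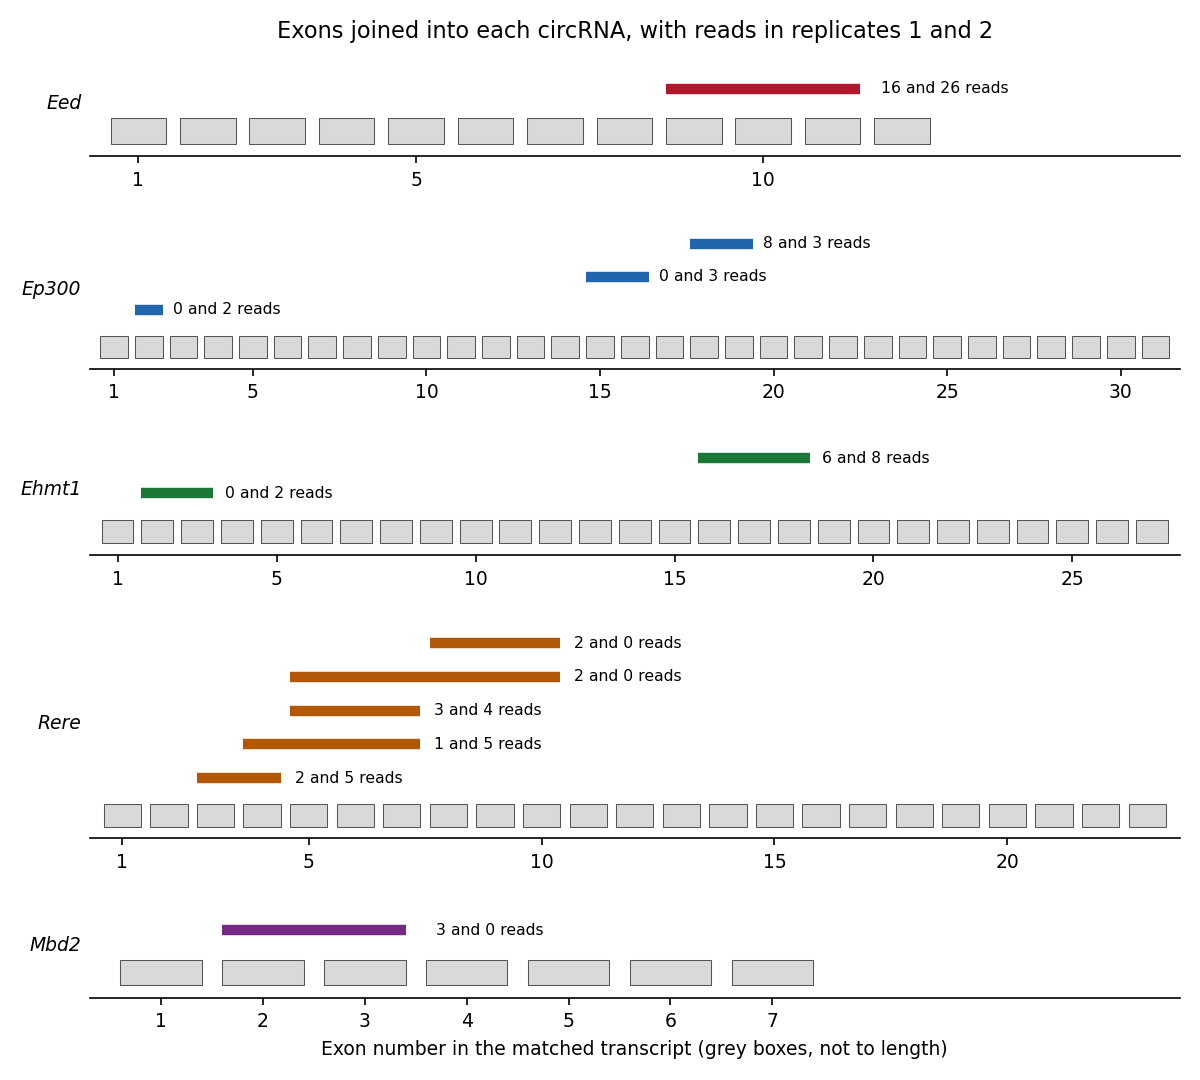
Exons of the matched transcript of each gene (grey boxes, by number, not to length) and its exons between the ends of each circRNA (coloured bars). Back-splice reads in replicates 1 and 2 are beside each bar. The 5 Rere bars lie between exons 3 and 10 and partly overlap, whereas the 3 Ep300 bars share no exon. The second Mbd2 circRNA, whose ends were not both at splice sites of 1 transcript, is not drawn.

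The joins of the best-covered circles are given first because the values below count reads across them. The Rere circle shown is the one with the most even reads in both libraries. Each sequence is read 5′ to 3′ on the transcript strand from the GENCODE M21 transcripts, with the last 120 bases of the circle followed by its first 120 bases. The capitals mark 10 bases on either side of the back-splice. Any other exon join within a sequence is that of the transcript and was not checked in reads. The Eed circle lies at chr7:89955531-89962361 on the minus strand, that of Ep300 at chr15:81631614-81632512 on the plus strand, that of Ehmt1 at chr2:24813527-24825067 on the minus strand and that of Rere at chr4:150468695-150477468 on the plus strand (mm10).
Eed exons 9 to 11: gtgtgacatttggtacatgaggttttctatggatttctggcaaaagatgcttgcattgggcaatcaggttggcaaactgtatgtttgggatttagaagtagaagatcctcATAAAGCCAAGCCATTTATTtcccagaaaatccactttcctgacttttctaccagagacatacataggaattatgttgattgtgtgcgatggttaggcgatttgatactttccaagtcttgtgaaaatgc
Ep300 exons 18 to 19: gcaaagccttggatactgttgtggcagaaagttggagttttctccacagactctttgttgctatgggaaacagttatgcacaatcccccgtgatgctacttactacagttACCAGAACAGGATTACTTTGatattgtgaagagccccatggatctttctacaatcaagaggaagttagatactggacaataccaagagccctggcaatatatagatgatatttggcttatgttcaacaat
Ehmt1 exons 16 to 18: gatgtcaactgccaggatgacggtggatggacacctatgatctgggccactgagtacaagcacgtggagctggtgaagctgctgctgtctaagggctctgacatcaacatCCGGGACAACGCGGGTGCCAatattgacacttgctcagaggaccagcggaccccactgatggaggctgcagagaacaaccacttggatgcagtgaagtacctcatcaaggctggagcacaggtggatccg
Rere exons 5 to 7: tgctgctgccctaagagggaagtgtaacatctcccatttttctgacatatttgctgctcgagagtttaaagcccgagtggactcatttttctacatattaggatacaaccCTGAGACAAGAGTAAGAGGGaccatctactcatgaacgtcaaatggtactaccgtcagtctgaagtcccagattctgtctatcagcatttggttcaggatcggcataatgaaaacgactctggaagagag

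Eed, the Polycomb gene, had the highest level of the 5 genes, all of it in 1 circRNA. Its circle joined exon 11 back to exon 9 of 12, covered codons 287 to 400 of 441 and measured 339 bases in 3 exons of 106, 159 and 74 bases. It had 16 reads in replicate 1 (exact 95% Poisson interval 9.15 to 26.0) and 26 in replicate 2 (17.0 to 38.1). The 2 intervals overlapped. Scaled to the total listed per library, with 1 read worth 282 CPM in replicate 1 and 225 in replicate 2 (CPM are counts scaled to a total of 1000000), the Eed level was 4512 and 5855 CPM. The mean was 5183 ± 949 CPM (SD, n = 2), rank 21 of 1132 circRNAs, and 98.2% of the listed circRNAs were at or below it. The ratio of replicate 1 to replicate 2 was 0.771 (95% interval 0.386 to 1.49).

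The circle of Eed had short introns on both sides. The intron before it measured 2367 bases and the one after it 467 bases. Among the 1008 circRNAs at splice sites of 1 transcript, 19.6% had an intron before the circle of that length or less, and 2.08% had an intron after the circle of 467 bases or less. The medians were 11220.5 and 8216 bases. Eed was also low in G and C, at 38.6% of its bases, with 2.78% of the 1008 circles at or below that share and a median of 48.8%. It was the only one of the 12 circles that ended at the next-to-last exon, as 10.3% of the 1008 did.

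Ep300, the acetyltransferase gene, had 3 circRNAs that used separate parts of the gene. Exons 18 to 19 of 31 (codons 1087 to 1196 of 2412, 329 bases) had 8 reads in replicate 1 and 3 in replicate 2, a mean of 1466 ± 1118 CPM and rank 140. Exons 15 to 16 (325 bases, chromosome 15, 81628293 to 81628737) had 0 and 3 reads, and exon 2 alone (638 bases, 81600908 to 81601545) had 0 and 2 reads. Replicate 1 was therefore the higher library for the leading circle, and the other Ep300 circles were listed in replicate 2 only. Summed over the gene, the libraries had 8 reads each, or 2256 and 1801 CPM (mean 2029 ± 321 CPM).

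The leading share of Ep300 thus differed in the counts, at 8 of 8 reads in replicate 1 and 3 of 8 in replicate 2. Fisher's exact test, two-sided, gave p = 0.0256 for Ep300 and an adjusted p of 0.540 over the 200 hosts with at least 2 circRNAs (Benjamini-Hochberg). None of the 200 passed after adjustment (0.0%), and 14 (7.0%) had an unadjusted p under 0.05 in this test. For Ehmt1 and Rere the same Fisher's exact test gave p = 0.500 and 0.653.

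The introns around the Ep300 circles of exons 18 to 19 (1494 and 1491 bases) and of exons 15 to 16 (758 and 1263 bases) were short as well. Those of the exon 2 circle measured 14185 and 6651 bases. The Ep300 circle of exons 18 to 19 held 38.9% G and C, close to that of Eed, and the other Ep300 circles held 48.6% and 50.9%.

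Ehmt1, the histone methyltransferase gene, gave most of its reads to 1 circle with closely repeated counts. Exons 16 to 18 of 27 (codons 793 to 902 of 1296, 330 bases in exons of 123, 102 and 105 bases) had 6 reads in replicate 1 and 8 in replicate 2. That is 1692 and 1801 CPM, a mean of 1747 ± 77.3 CPM and rank 113. Both libraries were at nearly the same level, with a ratio of 0.939, although the interval of 0.269 to 3.09 is wide at 14 reads. The other Ehmt1 circRNA, exons 2 to 3 (624 bases, chromosome 2, 24884146 to 24887069), had 0 and 2 reads, and the leading circle held 87.5% of the reads of the gene (95% Clopper-Pearson interval 61.7 to 98.4%). Over the gene Ehmt1 had 1972 ± 396 CPM.

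The joins of the remaining circles of Ep300 and Ehmt1, each listed in replicate 2 only, are shown to tell them from the leading circles. The last 20 bases of the last exon are in lower case and the first 20 bases of the first exon are in capitals.
Ep300 exon 2: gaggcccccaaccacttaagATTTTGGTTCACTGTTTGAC
Ep300 exons 15 to 16: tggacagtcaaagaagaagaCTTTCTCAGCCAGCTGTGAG
Ehmt1 exons 2 to 3: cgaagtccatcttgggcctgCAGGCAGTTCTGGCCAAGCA

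**Figure D2:**
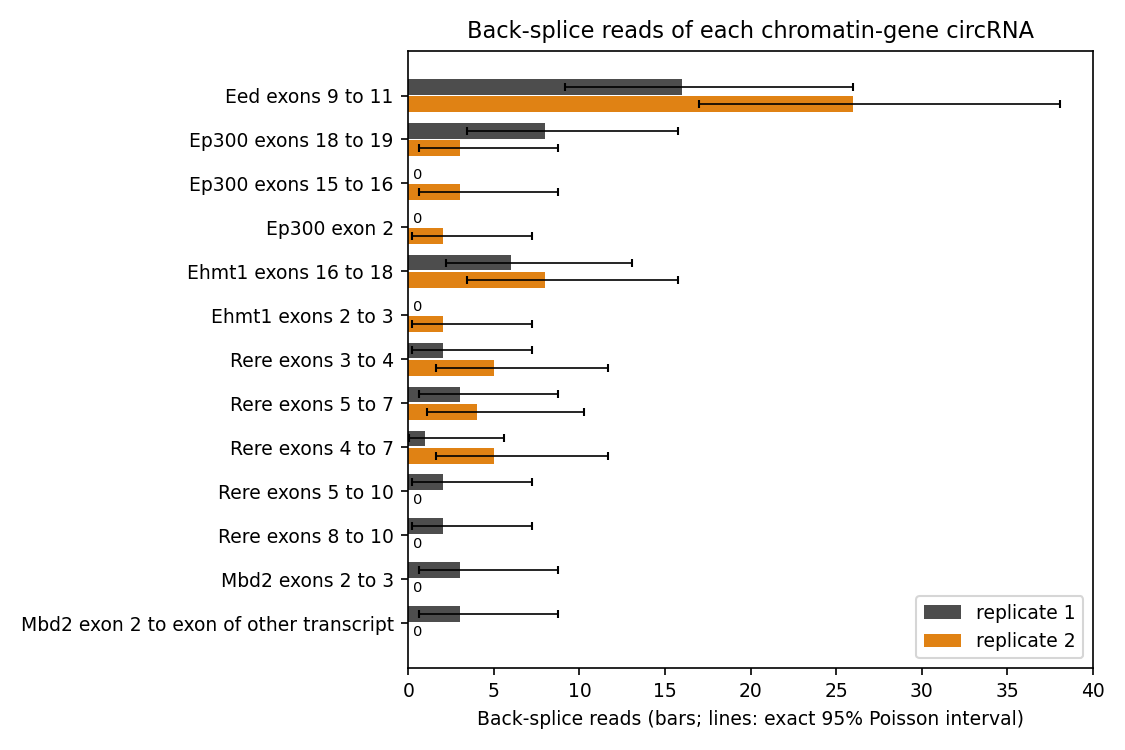
Back-splice reads of the 13 circRNAs (horizontal axis) in replicate 1 (grey bars) and replicate 2 (orange bars), with exact 95% Poisson intervals as lines and 0 written where none is listed. Eed, at 16 and 26 reads, stands above the others, which have at most 8 reads in a library, and the intervals of the 6 circRNAs seen in both libraries overlap.

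Rere, the corepressor gene, spread its reads over 5 circRNAs, all between exons 3 and 10 of 23. Exons 3 to 4 (197 bases, chromosome 4, 150431523 to 150439468) had 2 and 5 reads. Exons 5 to 7 (308 bases) had 3 and 4 reads, and exons 4 to 7 (434 bases, 150439343 to 150477468) had 1 and 5 reads. Exons 5 to 10 (582 bases, 150468695 to 150510038) and exons 8 to 10 (274 bases, 150500003 to 150510038) had 2 reads each in replicate 1 and were listed at 0 in replicate 2. No Rere circle led: the highest held 29.2% of the 24 reads of the gene (95% Clopper-Pearson interval 12.6 to 51.1%).

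The Rere circles reused splice sites, with 4 different starts and 3 different ends. Their joins are shown in the same way, because the shared ends can be read from them.
Rere exons 3 to 4: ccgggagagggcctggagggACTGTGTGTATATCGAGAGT
Rere exons 4 to 7: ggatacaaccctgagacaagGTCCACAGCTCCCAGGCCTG
Rere exons 5 to 7: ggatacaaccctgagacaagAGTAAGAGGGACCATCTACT
Rere exons 5 to 10: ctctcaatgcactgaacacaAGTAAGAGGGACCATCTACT
Rere exons 8 to 10: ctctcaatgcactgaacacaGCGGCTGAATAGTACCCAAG
The circles of exons 4 to 7 and 5 to 7 share the lower-case side, as do those of exons 5 to 10 and 8 to 10. The circles of exons 5 to 7 and 5 to 10 share the capital side. In the matched transcript, the exons of the 308-base circle and of the 274-base circle together are those of the 582-base circle. Which of these exons each circle held was not checked in reads. Exon 4 was the last exon of 1 circle and the first exon of another.

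Summed over its circRNAs, Rere had 10 and 14 reads, 2820 and 3152 CPM in the libraries, and a mean of 2986 ± 235 CPM. Among 823 host genes, Eed ranked 26 by summed mean level, Rere 69, Ep300 105, Ehmt1 112 and Mbd2 269. Eed was above Rere in each library, at 4512 against 2820 CPM and 5855 against 3152 CPM, although the Poisson intervals of the 2 genes overlapped in both (2579 to 7327 against 1352 to 5186 CPM in replicate 1, and 3824 to 8578 against 1723 to 5289 CPM in replicate 2). Ep300 and Ehmt1 were within their spread of each other. Rere was 1 of 6 hosts in the table with at least 3 circRNAs read in both libraries, and 1 of 11 hosts with at least 5 circRNAs.

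The introns around the Rere circles were long. They ranged from 7749 to 29226 bases before the circle and from 22534 to 29226 bases after it, and 4 of the 5 circles had more than 20000 bases on both sides, as 12.7% of the 1008 circRNAs at splice sites did. Eed, with the higher level, had 2367 and 467 bases. The lengths are a description of 12 circles, and several of them share an intron.

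**Figure D3:**
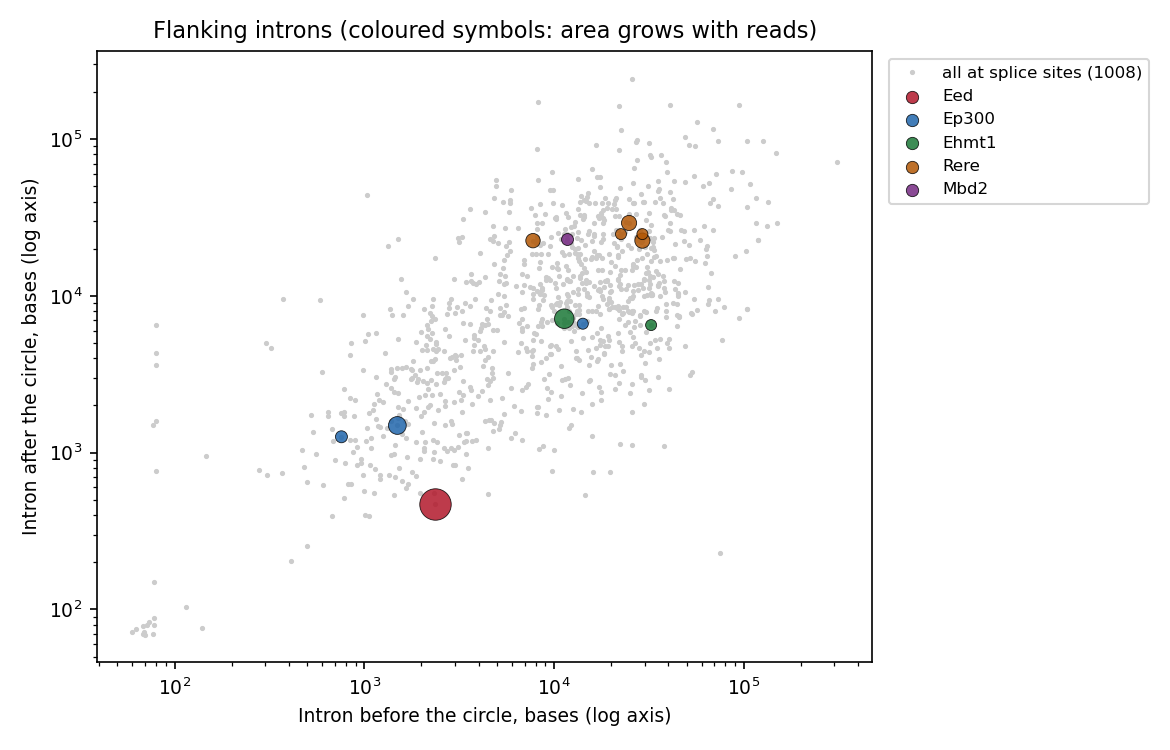
Length of the intron before (horizontal axis) and after (vertical axis) each circle, in bases on log axes, for the 1008 circRNAs at splice sites of 1 transcript (grey points) and the 12 of the 5 genes (coloured symbols whose area grows with reads). Eed and 2 Ep300 circles lie among the short introns at the lower left, and the Rere circles lie in the upper part among the long introns.

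Mbd2, which encodes the methyl-CpG binding protein, had 2 circRNAs, each read 3 times in replicate 1 and listed at 0 in replicate 2. Both started at exon 2 (chromosome 18, 70580653). The first ended at 70593340, the end of exon 3 of 7 (298 bases, codons 184 to 283 of 414). The second ended at 70594399, an annotated exon edge, but no single transcript had both of its ends at splice sites. Whether that edge is the end of a transcript was not checked. Each had 423 ± 598 CPM, rank 516. Summed over both, Mbd2 had 6 and 0 reads, with an exact binomial p of 0.00766 (two-sided) and an adjusted p of 0.191 over 823 hosts, of which 17 passed (2.07%) and 105 (12.8%) had an unadjusted p under 0.05. This host test takes each listed 0 as no reads, and it was not repeated with a listed 0 set to 1 read. Without replicate 1, Mbd2 would not be listed as a host.

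The comparison of the libraries asked which counts differed by more than counting error. None of the 13 circRNAs passed the exact binomial test against the library totals (two-sided, Benjamini-Hochberg over 1132 circRNAs), and 0 had an unadjusted p under 0.05. Among all listed circRNAs, 18 passed (1.59%) and 106 (9.36%) had an unadjusted p under 0.05. Ep300 exons 18 to 19 had the lowest p of the 13, 0.0715, with an adjusted p of 0.433 and a ratio of 3.34 (95% interval 0.802 to 19.5). At 2 to 8 reads a library such a ratio is hardly bounded, so these p-values do not show that the libraries were alike. The circRNAs of the 13 that were read in 1 library only had 2 or 3 reads each. No split of so few reads can fall under 0.05 in the exact binomial test. For them the test could not decide whether the libraries differed.

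Of the 13, 6 were read in both libraries (Eed, 1 of Ep300, 1 of Ehmt1 and 3 of Rere), 4 in replicate 1 only and 3 in replicate 2 only. Among all 1132, 330 (29.2%) were read in both. The ratio of the libraries was within 2-fold in 4 of the 6, against 78.2% of the 330. The exceptions were Ep300 exons 18 to 19 and Rere exons 4 to 7, at 1 and 5 reads. Rere exons 3 to 4 lay at the limit, with a ratio of 0.501, and with the deposited TMM-scaled values (a ratio of 0.466) the counts became 3 of the 6 and 75.8% of the 330, a comparison chosen after seeing the data. The median circRNA of the 13 had 3 reads in total, and so did the median of the table. Of the 373 circRNAs with 2 reads in all, 1 had them split between the libraries, yet 41 others stood in the table at 1 read in all. Whether a listed 0 hides a read was not tested.

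**Figure D4:**
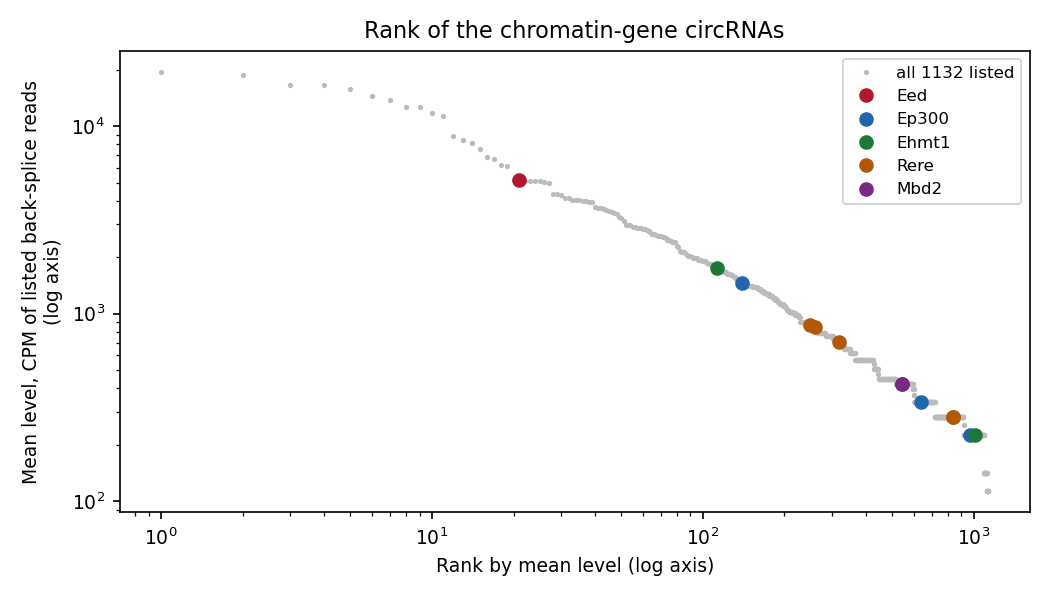
Mean level (vertical axis, CPM of listed back-splice reads, log axis) against rank (horizontal axis, log axis) for all 1132 circRNAs (grey) and the 13 of the 5 genes (coloured). Eed lies at rank 21, the leading Ehmt1 and Ep300 circles at ranks 113 and 140, and the others from rank 240 downward.

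The 12 circles at splice sites shared a position inside the coding sequence. All 12 were wholly coding, against 81.5% of the 1008, and 0 held the start codon, against 15.3%. Their spliced lengths ran from 197 to 638 bases with a median of 329.5, and the median of the 1008 was 368. Circles that start at exon 2 were 3 of 12 (Ep300, Ehmt1 and Mbd2), against 36.4%. These are counts over circles that share genes and exons, and no test was made of them.

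The lengths of 4 of the 12 circles, or 33.3%, were multiples of 3 (Eed at 339 bases, Ehmt1 at 330 and 624 and Rere exons 5 to 10 at 582). This share was close to the 34.3% of the 822 wholly coding circles of the table. In those 4 the frame of the host ran through the join with no stop codon, as it did in 281 of 282 such circles of the table. Codons inside an open frame hold no stop by construction, so only the codon at the join could close it. In that frame the Eed circle held 4 ATG codons, the leading Ehmt1 circle 3, and Ehmt1 exons 2 to 3 and Rere exons 5 to 10 held 5 each. The 281 circles held 0 to 23, with a median of 2. The lengths of the other 8 circles, those of Ep300 and Mbd2 among them, were not multiples of 3.

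Other chromatin genes, only in part of the same complexes, were read from 10 lists (160 genes, with the 5 genes included). Of these, 28 (17.5%) hosted a listed circRNA, against 3.94% of 20620 multi-exon protein-coding genes, and 10 had a circRNA read in both libraries. Without replicate 1 the count was 17. Expression was not matched, since no linear RNA values were used here, and the lists were chosen with earlier results known. The 5 genes were hosts by the way they were chosen, which raises the share of the lists. Among 12 genes of PRC2 and its partners there were 3 hosts: Eed, the catalytic subunit gene Ezh2 with 0 and 9 reads, and the histone-binding subunit gene Rbbp4 with 0 and 7 reads. Eed was thus the only one of the PRC2 hosts with reads in replicate 1.

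The acetyltransferase list had 3 hosts of 14, Ep300, Kat6b (7 and 7 reads) and the coactivator gene Ncoa3 (2 and 0). Kat6b, which encodes a MYST-family acetyltransferase, was close to Ep300 in level, at 1775 ± 281 CPM. Ehmt1 was the 1 host of 12 genes of histone H3 lysine-9 methylation and HP1, and its partner gene Ehmt2 was not listed. Rere was joined by the deacetylase gene Hdac4 (3 and 0 reads, typed as intronic) and the corepressor gene Rcor1 (2 and 0) among 19 genes. Mbd2 was the 1 host of 15 genes of methyl-CpG binding and NuRD. PRC1, the other Polycomb complex, had 1 host of 19, Rnf2 (0 and 4 reads).

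**Figure D5:**
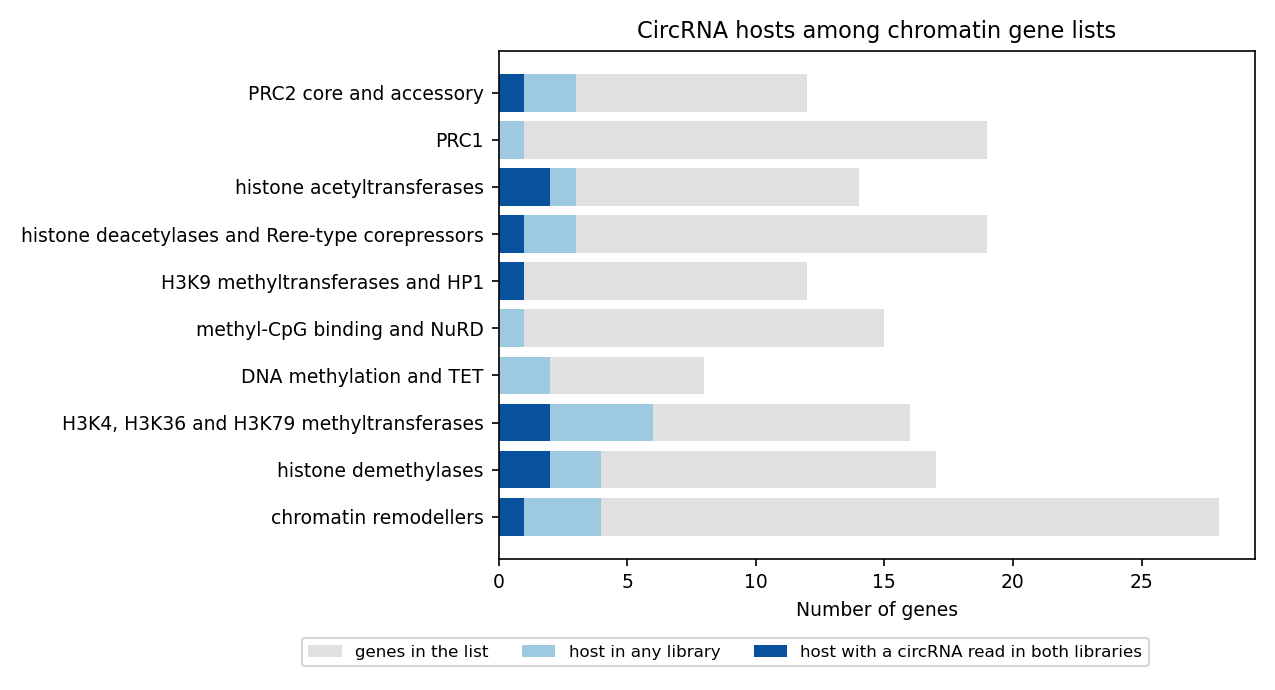
Number of genes (horizontal axis) in each of the 10 chromatin gene lists (grey), those that hosted a listed circRNA in any library (light blue) and those with a circRNA read in both libraries (dark blue). Hosts were 3 of 12 for PRC2 with Eed, 3 of 14 for acetyltransferases with Ep300 and 6 of 16 for the list of H3K4, H3K36 and H3K79 methyltransferases.

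The labelled stem cell origin could not be read from these circRNAs. Of 5 stem cell markers (Lgr5, Olfm4, Ascl2, Smoc2 and Axin2) none hosted a listed circRNA, and neither did 3 Paneth, 3 enteroendocrine, 2 tuft or 5 stromal markers. All 6 enterocyte markers were hosts, with 121 and 97 reads. Since lists were chosen with earlier results known, the counts of marker hosts do not measure cell content. Of 5 immune markers 3 were hosts, with 4 and 26 reads, and Ptprc and Cd3e were at 0. Of 4 goblet markers 3 were hosts, with 9 and 0 reads, and Tff3 was at 0. The immune and goblet reads thus differed in number between the libraries, as those of Mbd2 (6 and 0) and Ezh2 (0 and 9) did, and their part in those counts was not tested.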

How the data were processed

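Total RNA of wild-type small intestinal crypts was sequenced in 2 libraries, per the labels' protocols. For the aligner, the circRNA caller, its filters and the use of strand, names are not given in the sources used. Per the submitters' processing notes, the genome build was mm10. The deposited counts are raw back-splice reads per circRNA, per the file headers, and sum to 3546 and 4441. These totals cover listed back-splice reads only and are not the sequencing depth. The deposited values headed CPM are a normalised signal, each count times 272 in replicate 1 or 233 in replicate 2. Effective totals computed here with TMM in edgeR 4.0.16 gave the same constants.

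CPM of the listed reads were computed as levels, with SD over n = 2. Exact Poisson and Clopper-Pearson intervals (95%) cover counting error only, and PCR copies among the reads would make them too narrow. Differences between the libraries used the exact binomial test with Benjamini-Hochberg adjustment over the table (threshold 0.05, scipy 1.17.1). The test was run on simulated data drawn from the same binomial model, which does not probe spread beyond counting error. The exact binomial test compares 2 libraries, not conditions. The tests on reads summed per host and on the leading share were added after the values were seen. Positions were matched to GENCODE M21 on the same build, preferring protein-coding and basic transcripts and then the longest coding sequence. Circle sequences were read from its transcripts, with every exon of the matched transcript between the ends included. Sequence of Mbd2 circles is not shown. Genome sequence was not used here.

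Every circRNA of the 5 genes is described, and other genes are named from the chromatin lists, at most 3 per list by mean level. Members and lists were chosen with earlier results of these data known. All columns of sample values were used.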

Additional observations from a re-analysis of the deposited data

How the results depend on the processing

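With deposited values (TMM-scaled totals) in place of CPM of the listed reads, the summed level of each of the 5 genes moved by less than its SD. Totals over splice-site circRNAs gave Rere 3286 CPM. With circRNAs of at least 5 reads, or with those read in both libraries, Ep300 fell to 1466 CPM and Rere to 2422 CPM, since circles of few reads were left out, and Mbd2 had none left. Leaving out 1 of the 2 libraries returns the level of the other, so the ranges that follow are no separate check. They were 4512 to 5855 CPM for Eed, 1801 to 2256 for Ep300, 1692 to 2252 for Ehmt1, 2820 to 3152 for Rere and 0 to 1692 for Mbd2. Chromatin list hosts numbered 10 with circRNAs read in both libraries, and 17 to 21 with a library left out. The 18 circRNAs that differed between libraries became 15 with TMM-scaled totals, 18 with splice-site totals, 19 with at least 5 reads and 12 with a listed 0 set to 1 read. None of the 13 circRNAs passed under the 3 settings that tested all of them, nor did the 6 tested with at least 5 reads. Those of the 13 with 2 or 3 reads had too few to pass under any setting, so the settings do not test them. No row of the 5 genes named several genes. No paired analysis was possible because there was 1 group. Most circles have fewer than 10 reads, which limits every ratio.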

Other observations

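Other chromatin genes outside the 5 also had circRNAs read in both libraries. Kdm5c, an X-linked histone demethylase gene, had 7 and 13 reads for exons 11 to 12 of 26 (chromosome X, 152253424 to 152253861), at 2451 ± 674 CPM. Nsd2, a histone methyltransferase gene, had 5 and 11 reads for exons 3 to 4 of 23 (chromosome 5, 33843112 to 33846267), at 1943 ± 754 CPM. Kdm4c, a demethylase gene, had 5 and 7 reads (1493 ± 118 CPM), and Pbrm1, a remodeller subunit gene, had 4 and 5 reads (1127 ± 1.53 CPM). With 1 read worth 282 CPM in replicate 1 and 225 in replicate 2, so small an SD does not measure the counting error of Pbrm1. None of these 4 passed the exact binomial test between the libraries.

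Ezh2, which encodes the catalytic partner of Eed, had 3 circRNAs, all in replicate 2 only. On the minus strand of chromosome 6, 2 of them covered exons 4 to 8 of 20 and shared the edge at 47558294, where exon 4 begins. Their other edges, where exon 8 ends, were 47551717 (661 bases, 2 reads) and 47551732 (646 bases, 4 reads), and so lay close together. The third covered exons 2 to 3 (47576536 to 47577667, 253 bases, 3 reads). Tet3, a DNA demethylation gene, likewise had 2 circRNAs with a shared edge at 83402667 on the same chromosome, read 3 and 2 times in replicate 1 and listed at 0 in replicate 2.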
